A study of Homo sapiens with 3 samples.

Results

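The tumour necrosis factor (TNF) superfamily and its receptors were followed in UM-UC-3 cells, an established human bladder cancer line, after knockdown of NONO, a DBHS protein that binds nucleic acids and is part of nuclear paraspeckles. Cells received 75 nM of NONO siRNA 1, of NONO siRNA 2 or of a negative control siRNA for 48 h, with Lipofectamine RNAimax in all cases, and each gave 1 RNA-seq library. No treatment was repeated, so p-values rest on the spread between the 2 NONO siRNA libraries, taken mostly from its trend over all genes. In that spread, technical differences and those between the siRNAs cannot be told apart. Members were every gene whose symbol begins TNFSF or TNFRSF plus a number, and 14 named genes such as TNF, CD40, CD70, FAS and LTBR. The rule took 51 genes, of which 31 had a row in all 3 tables, among 21308 such genes in all. Of these 31, 22 reached 1 CPM (reads of a gene scaled to the library's total) in at least 1 library and were tested among 13922 genes. They were 2 ligands, 18 receptors and 2 non-coding RNAs, and 18 of the 22 stood at 1 CPM or more in all 3 libraries.

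Ligands of this family are mostly trimeric membrane proteins that can be shed, and their receptors carry cysteine-rich repeats outside the cell. Receptors with an intracellular death domain can recruit TRADD or FADD and start apoptosis. Others bind TRAF adaptors and switch on the canonical or the alternative NF-kB pathway, which in turn induces several of the family's own genes. Decoy receptors bind ligand without a working death domain. Most ligands are known from leukocytes, while many receptors are also made by epithelial cells.

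NONO itself stood at 79.5 CPM with siRNA 1 and 104 CPM with siRNA 2, against 823 CPM in the control library, and passed limma's test (adjusted p = 0.00698). The values implied 29408573 and 28594569 reads in the NONO siRNA 1 and 2 libraries and 27681990 in the control library. The epithelial keratins KRT8 and KRT18 lay between 43.0 and 111 CPM and the mesenchymal VIM between 947 and 1380 CPM. Of the 13 urothelial and epithelial markers 5 were tested, among them PPARG at 2.31 to 4.30 CPM, GATA3 at 1.12 to 2.04 CPM and KRT7 at no more than 1.30 CPM. UPK1A, UPK2 and KRT19 reached no more than 0.442 CPM, and KRT5, EPCAM, CDH1, UPK1B and UPK3A have no row in the tables used here. The 10 leukocyte markers summed to 1.36 and 1.57 CPM in the NONO siRNA 1 and 2 libraries and to 1.81 CPM in the control library, with the highest, ITGAM, at 1.30 CPM. In bulk RNA, fewer cells making a gene and less RNA per cell cannot be told apart.

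As a group the members stood lower with NONO siRNA, without a member passing the main test. The members were chosen with earlier results of these data known, so counts over them are no independent support. Both NONO siRNA libraries lay below the control library for 15 of the 22 tested members, against 34.5% of all genes tested. Both lay above it for 3 members, against 37.8% of all genes tested, and the control library lay between them for 4. Among the 15 lower members, TNFRSF1B and TNFRSF14 passed the filter of 1 CPM through the control library alone. The members' median log2 fold over the control was -0.40 with siRNA 1 and -0.20 with siRNA 2, beside 0.03 and 0.01 over all genes tested. All folds here are differences of log2(CPM + 1), so those of genes near 1 CPM are understated, and both siRNAs share the lone control library. No member passed limma at an adjusted p under 0.05 in either direction, where 0.079% of all genes were called lower and 0.136% higher. At an unadjusted p under 0.05, limma gave 6 members lower, against 4.45% of all genes, and 0 higher, against 6.95%. TNFRSF1B and TNFRSF14, which passed the filter through the control library alone, are among the 6. On reads recovered from the CPM values, edgeR called 1 of 25 members lower (0.413% of all its genes) and 0 higher (0.507%). DESeq2 called 1 of 18 members lower (0.508%) and 0 higher (1.17%), and in both tools the 1 member was TNFRSF9.

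**Figure D1:**
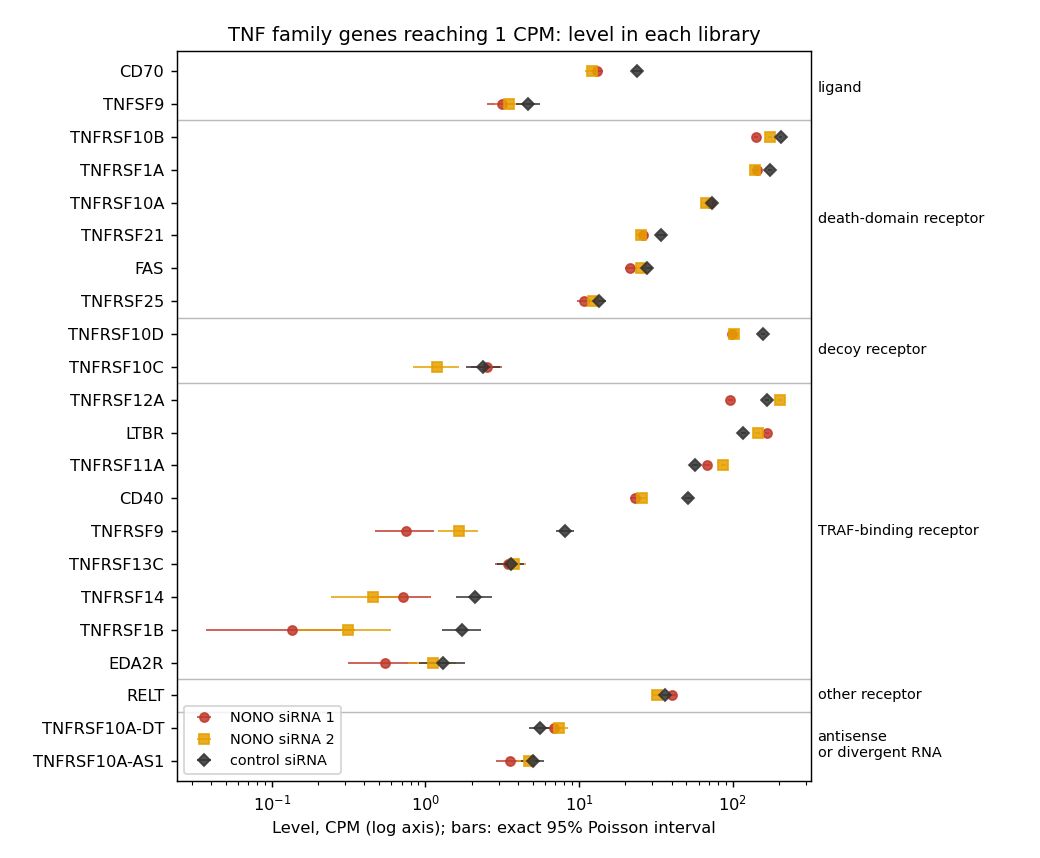
Level of each of the 22 tested members in CPM (log axis) in the NONO siRNA 1, NONO siRNA 2 and control siRNA libraries, 1 point per library, with exact 95% Poisson intervals that cover counting error only. TNFRSF9, TNFRSF1B, TNFRSF14, CD40, CD70 and TNFRSF10D lie at 64.8% of the control or less in both NONO siRNA libraries, and TNFRSF12A lies on either side of its control.

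Few ligands were made at a measurable level, and both that were stood lower with NONO siRNA. CD70, the ligand of CD27 and a costimulator of lymphocytes, stood at 13.0 CPM with siRNA 1 and 12.1 CPM with siRNA 2, against 23.9 CPM in the control library. Both knockdown libraries were thus at 54.3% and 50.7% of the control level. CD70 had log2 folds of -0.83 and -0.92 (SE of the mean 0.27), which limma did not call (adjusted p = 0.249). TNFSF9, the ligand of TNFRSF9, stood at 3.13 and 3.50 CPM in the NONO siRNA 1 and 2 libraries, against 4.66 CPM in the control library. The 95% Poisson interval was 2.52 to 3.84 CPM with siRNA 1, below the control's 3.89 to 5.54 CPM, and 2.85 to 4.25 CPM with siRNA 2, which overlaps it. The mean log2 fold of TNFSF9 was -0.39 (SE 0.29, limma adjusted p = 0.683). CD70 and TNFSF9 are neighbours on chromosome 19, 47254 bases apart on GRCh38 in GENCODE 29, and TNFSF14, another ligand gene of this cluster, gave 1 and 2 reads with NONO siRNA and 2 in the control.

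The other ligands were near the limit of detection. TNFSF13, which binds receptors of B cells, gave 11 and 16 reads with NONO siRNA 1 and 2 and 8 in the control library, and at 0.560 CPM was the highest ligand under 1 CPM. Of its exon bases 55.5% are shared with the readthrough gene TNFSF12-TNFSF13, so its count is uncertain. TNFSF13B, a survival factor of B cells, gave 2 and 8 reads with NONO siRNA and 10 in the control. TNFSF10, known as TRAIL, gave 2 and 1 reads with NONO siRNA and 5 in the control. EDA, which acts in skin appendages, TNFSF4 and TNFSF14 stayed at or under 0.420 CPM. TNF gave 4 reads with siRNA 1 and 1 read in the control library, and LTA gave 1 and 2 in the same 2 libraries. TNFSF18 had 1 read with siRNA 2. These 3 genes have no row for the other libraries. At such counts no difference between libraries was detectable. FASLG, LTB, TNFSF8, TNFSF11, TNFSF12 and TNFSF15 have no row in the tables used here.

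With few ligands, known ligand and receptor partners were rarely seen together. Of 33 pairs of 17 ligands and 24 receptors, written down from textbook knowledge, 13 had a receptor with at least 1 CPM in all 3 libraries. Both partners had a row in all 3 tables for 11 of the 33 pairs, and the other pairs count as not reaching that level. In 0 of the 33 did both partners reach it. TNFSF9 and TNFRSF9 were the 1 pair in which both partners reached 1 CPM in at least 1 library. CD27, the receptor of CD70, gave 3 and 6 reads with NONO siRNA 1 and 2 and 3 in the control library. CD40, TNFRSF21 and RELT are in none of these pairs. The ligand of CD40 is not taken by the rule, so its level was not looked up.

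Of 8 death-domain receptors 6 were tested, and all 6 lay lower in both NONO siRNA libraries, by small amounts, against 34.5% of all genes tested. The 95% Poisson intervals overlap the control's for TNFRSF10A with siRNA 1 and for FAS and TNFRSF25 with siRNA 2. TNFRSF10B, a death receptor for TRAIL, stood at 143 CPM with siRNA 1 and 175 CPM with siRNA 2, against 205 CPM in the control library. TNFRSF1A, the main receptor of TNF on most cells, stood at 143 and 140 CPM with NONO siRNA, against 175 CPM in the control. These receptors were thus among the most abundant of the family in every library, with knockdown levels of 69.6% to 85.2% of the control for TNFRSF10B and of 81.6% and 79.7% for TNFRSF1A. The mean log2 folds were -0.38 for TNFRSF10B (SE 0.23) and -0.31 for TNFRSF1A (SE 0.22), with limma adjusted p = 0.608 and 0.673.

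TNFRSF10A, the other TRAIL death receptor, stood at 71.4 and 66.9 CPM with NONO siRNA 1 and 2, against 73.7 CPM in the control library. FAS, the receptor of Fas ligand, stood at 21.6 and 25.4 CPM with NONO siRNA, against 27.7 CPM. TNFRSF21, known as death receptor DR6, stood at 25.9 and 25.2 CPM with NONO siRNA, against 34.4 CPM. Of these, TNFRSF21 had the lowest mean log2 fold, -0.41 (SE 0.26, limma adjusted p = 0.606), while FAS had -0.23 (SE 0.27, adjusted p = 0.799) and TNFRSF10A -0.09 (SE 0.24, adjusted p = 0.927). TNFRSF25, the receptor of TNFSF15, stood at 10.8 and 12.3 CPM with NONO siRNA, against 13.5 CPM, with a mean log2 fold of -0.21 (SE 0.28, adjusted p = 0.836). NGFR, the neurotrophin receptor, gave 6 and 4 reads with NONO siRNA and 3 in the control. EDAR gave 3 reads with siRNA 2 and has no row for the other libraries.

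The decoy receptors differed in level and in pattern. TNFRSF10D, a TRAIL receptor with a truncated death domain, stood at 98.4 CPM with siRNA 1 and 102 CPM with siRNA 2, against 158 CPM in the control library. Both NONO siRNA libraries were lower, at 62.3% and 64.8% of the control, and the mean log2 fold was -0.65 (SE 0.23, limma adjusted p = 0.312). TNFRSF10C, a TRAIL receptor held by a lipid anchor, gave 74 and 34 reads with NONO siRNA 1 and 2, or 2.52 and 1.19 CPM, and 66 reads, or 2.38 CPM, in the control. It was thus low with siRNA 2 only, and its log2 folds were 0.06 and -0.63. The 4 TRAIL receptor genes lie in 1 cluster on chromosome 8 and are similar in sequence, so reads assigned to single members are uncertain, and 485 of the 1868 exon bases of TNFRSF10C also belong to AC107959.4 on the same strand. Beside them, TNFRSF10A-DT stood at 6.90 and 7.38 CPM with NONO siRNA and 5.53 CPM in the control, and TNFRSF10A-AS1 at 3.54 and 4.69 CPM and 4.99 CPM in the same order. Exons of both overlap TNFRSF10A on the opposite strand, by 266 and 224 bases, and without a stated strand setting shared reads cannot be told apart.

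Of 16 TRAF-binding receptors 9 were tested, and they went in different directions. Both NONO siRNA libraries lay below the control for 5 of the 9 and above it for 2, against 34.5% and 37.8% of all genes tested. The 2 higher ones were LTBR and TNFRSF11A, and for the other 2 the control lay between the libraries. This class also held the 4 lowest mean folds among the members, those of TNFRSF9, TNFRSF1B, CD40 and TNFRSF14. Of these, TNFRSF1B and TNFRSF14 reached 1 CPM in the control library only. TNFRSF9, also called CD137, a costimulatory receptor of activated T cells, had 22 reads with siRNA 1 and 47 with siRNA 2, or 0.748 and 1.64 CPM, against 224 reads, or 8.09 CPM, in the control library. The Poisson intervals of 0.469 to 1.13 CPM and 1.21 to 2.19 CPM with NONO siRNA lie below the control's 7.07 to 9.22 CPM. They cover counting error only, and the share of all genes that lie apart in this way was not counted. The levels were 9.24% and 20.3% of that in the control. TNFRSF9 had log2 folds of -2.38 and -1.78 (SE of the mean 0.34), and limma's adjusted p was 0.0577, just above the threshold. The adjusted p was 0.00814 in edgeR and 0.00235 in DESeq2, and over all settings tried it ranged from 0.00235 to 0.566.

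TNFRSF1B, the second TNF receptor, had 4 and 9 reads with NONO siRNA 1 and 2, or 0.136 and 0.315 CPM, against 48 reads, or 1.73 CPM, in the control library. TNFRSF14, known as HVEM and a receptor of TNFSF14, had 21 and 13 reads with NONO siRNA, or 0.714 and 0.455 CPM, against 58 reads, or 2.10 CPM. Both genes reached 1 CPM only in the control library, so the filter favoured a higher control value. Their knockdown intervals end below the control's lower bound, 1.28 CPM for TNFRSF1B and 1.59 CPM for TNFRSF14, but cover counting error only. Given that filter, this is no independent support for a difference. Mean log2 folds were -1.16 (SE 0.30, limma adjusted p = 0.177) for TNFRSF1B and -0.97 (SE 0.30, adjusted p = 0.255) for TNFRSF14. TNFRSF9 and TNFRSF1B were the 2 members at least 2-fold lower with both siRNAs on this scale, against 0.668% of all genes tested, and 0 members were 2-fold higher with both, against 1.24%. TNFRSF1B counts here although it passed the filter through the control library alone, so it adds no independent support.

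CD40, a receptor of antigen-presenting cells that many carcinoma cells also carry, had 676 reads with siRNA 1 and 735 with siRNA 2, or 23.0 and 25.7 CPM, against 1419 reads, or 51.3 CPM, in the control library. Both knockdown libraries were close to each other, at 44.8% and 50.1% of the control. CD40 had log2 folds of -1.12 and -0.97 (SE of the mean 0.26) and an adjusted p of 0.159 in limma, 0.0718 in edgeR and 0.0621 in DESeq2.

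**Figure D2:**
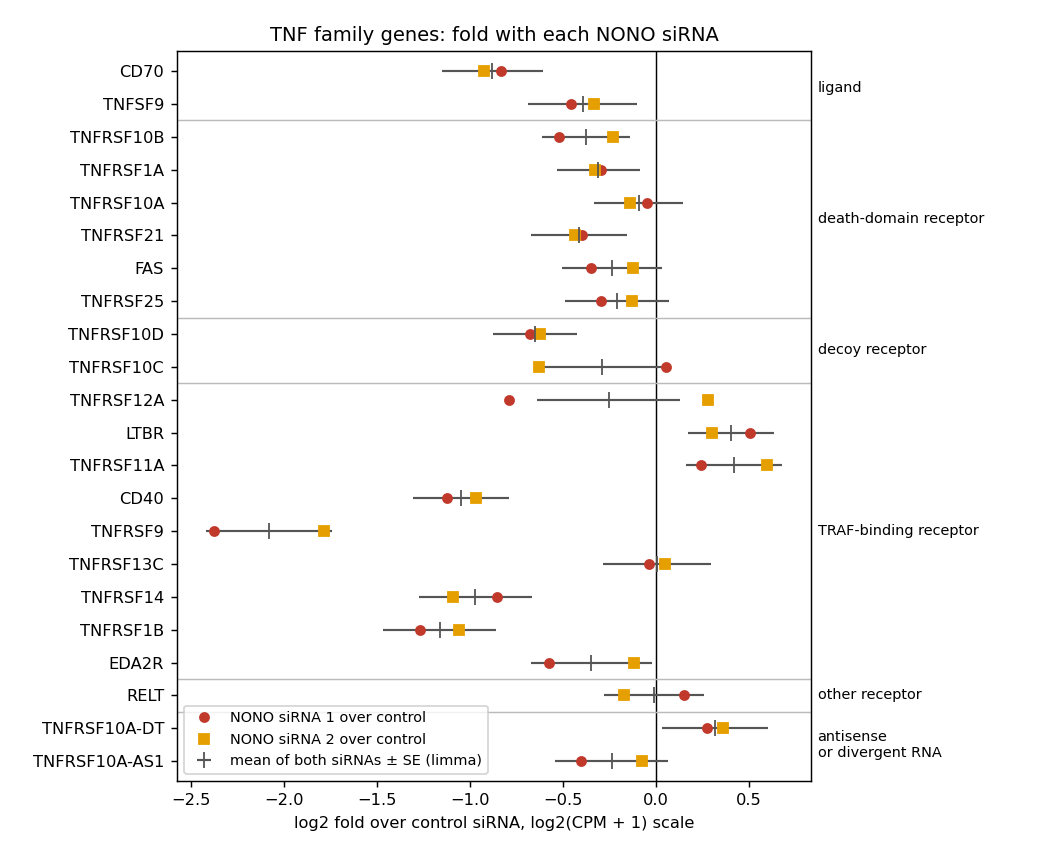
log2 fold over the control siRNA library on the log2(CPM + 1) scale for each tested member, with 1 point for NONO siRNA 1, 1 for NONO siRNA 2, and the mean with its limma SE. TNFRSF9 is lowest at -2.38 and -1.78, and LTBR and TNFRSF11A lie right of 0. All 6 tested death-domain receptors lie left of 0 with both siRNAs, as do 34.5% of all genes tested.

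Promoters of TNFRSF9, TNFRSF1B and TNFRSF14 are shown because these receptors are 3 of the 4 with the lowest mean folds. The promoter of CD40 is not shown. Each is the RefSeq window on GRCh38.p14 from 250 bases before to 50 after the start of transcription, 5′ to 3′ on the gene's strand, with matches to the NF-kB consensus of 10 bases in capitals.
TNFRSF9, chr1:7940790-7941089, minus strand: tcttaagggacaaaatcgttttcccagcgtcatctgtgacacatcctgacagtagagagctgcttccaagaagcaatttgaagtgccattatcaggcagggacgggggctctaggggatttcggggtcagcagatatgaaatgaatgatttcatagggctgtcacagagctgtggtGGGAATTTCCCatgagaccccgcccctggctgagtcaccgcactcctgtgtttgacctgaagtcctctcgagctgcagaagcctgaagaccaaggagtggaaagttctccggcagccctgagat
TNFRSF14, chr1:2556121-2556420, plus strand: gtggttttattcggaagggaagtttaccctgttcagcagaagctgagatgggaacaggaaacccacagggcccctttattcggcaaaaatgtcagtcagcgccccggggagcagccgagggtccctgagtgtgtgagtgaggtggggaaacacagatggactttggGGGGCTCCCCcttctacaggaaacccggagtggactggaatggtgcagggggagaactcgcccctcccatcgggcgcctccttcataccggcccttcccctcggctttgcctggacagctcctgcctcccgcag
TNFRSF1B, chr1:12166741-12167040, plus strand: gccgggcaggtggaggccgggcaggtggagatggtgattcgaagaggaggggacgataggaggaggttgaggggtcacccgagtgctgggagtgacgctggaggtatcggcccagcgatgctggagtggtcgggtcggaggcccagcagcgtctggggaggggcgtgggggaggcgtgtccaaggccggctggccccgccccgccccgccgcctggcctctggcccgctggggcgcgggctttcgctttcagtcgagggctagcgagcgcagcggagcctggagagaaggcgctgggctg
In TNFRSF9 the consensus matched on both strands, at positions -74 to -65 and -73 to -64 from the start, which overlap. In TNFRSF14 it matched once, at -84 to -75, and in TNFRSF1B these letters are not in this window. RefSeq windows were matched for 12 of the 22 tested members, 16 windows in all, and 4 of these windows held a match, those of TNFRSF9, TNFRSF14, TNFRSF25 and 1 of the 3 of FAS. Of all 35116 windows of this length, 5.91% held a match. The shorter motif GGGAA, searched on both strands and able to overlap the consensus as it does in TNFRSF9, was in 11 of the 16 windows, against 65.0% of all windows. A match of letters is a description and no sign that a factor binds there.

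LTBR and TNFRSF11A stood higher in both NONO siRNA libraries. LTBR, the lymphotoxin beta receptor of the alternative NF-kB pathway, stood at 167 CPM with siRNA 1 and 145 CPM with siRNA 2, against 117 CPM in the control library. TNFRSF11A, known as RANK and as the receptor that drives osteoclast formation, stood at 67.7 and 86.8 CPM with NONO siRNA, against 57.0 CPM. The mean log2 folds of 0.41 (SE 0.23) and 0.42 (SE 0.26) did not pass limma's test, with adjusted p = 0.565 and 0.599. LTBR lies 32930 bases from TNFRSF1A on chromosome 12, so a receptor with both knockdown values above the control stands beside one with both below it.

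TNFRSF12A, known as Fn14 and as the receptor of TWEAK, was the member on which the siRNAs differed most on the log2(CPM + 1) scale. It stood at 96.2 CPM with siRNA 1 (95% Poisson interval 92.7 to 99.8) and 203 CPM with siRNA 2 (198 to 209), against 167 CPM in the control library (162 to 172). The level was thus lowest with siRNA 1 and highest with siRNA 2, on either side of the control. TNFRSF12A thus had log2 folds of -0.79 and 0.28, with a difference of -1.07 for siRNA 1 minus siRNA 2, and limma did not call their mean (adjusted p = 0.858). TNFRSF12A was the 1 member at least 2-fold apart between the siRNAs on that scale, against 2.05% of all genes tested, and with 1 library for each siRNA that difference has no test.

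The sequences behind this gene are shown because the siRNAs differed most on it and its 3′ UTR holds matches to 1 siRNA only. Matches to 1 siRNA only were also found in other members, such as EDA2R and TNFRSF9. The strand of NONO siRNA 1 that pairs with NONO mRNA and the sites in TNFRSF12A-201 read as follows, 5′ to 3′, with bases 2 to 8 of the siRNA strand and the complementary bases of the sites in capitals.
NONO siRNA 1, strand complementary to the labelled one: uAUGAAUGaagacuucgcc
TNFRSF12A site at chr16:3021864-3021870, plus strand: gcccactcatCATTCATtcatccattc
TNFRSF12A site at chr16:3021868-3021874, plus strand: actcatcattCATTCATccattctaga
The 2 sites overlap and start at bases 38 and 42 of a 3′ UTR of 557 bases (GENCODE 29 on GRCh38). Such a 7-base match was in 3 of 20 members searched, TNFRSF12A, TNFRSF11A and EDA2R, against 15.1% of 11504 genes. TNFRSF12A was thus lower with the siRNA whose site it holds, while TNFRSF11A, with 1 such site, had a log2 fold of 0.25 with siRNA 1. Sites for the labelled strand of NONO siRNA 1 were in TNFRSF11A and TNFRSF13C, against 1.49% of genes. Those for the labelled strand of NONO siRNA 2 were in TNFRSF11A and TNFRSF1B, against 12.9% of genes. EDA2R, a receptor of an ectodysplasin isoform, had 16 and 32 reads with NONO siRNA 1 and 2, or 0.544 and 1.12 CPM, and 36 reads, or 1.30 CPM, in the control (mean log2 fold -0.35, SE 0.33, limma adjusted p = 0.751). For the strand of NONO siRNA 2 complementary to the labelled one, the site was in TNFRSF9 and TNFRSF1B, against 4.58% of genes. Both genes also lay lower with siRNA 1, whose site they do not hold, at 9.24% and 7.84% of the control. The control siRNA's site was in RELT and TNFRSF10D, against 2.96% of genes. A site is a match of letters, and its part in these levels was not tested.

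The remaining receptors lay close to the control. RELT, a receptor of lymphoid tissues, stood at 40.4 and 32.1 CPM with NONO siRNA 1 and 2, against 36.3 CPM in the control library, so the control lies between them (mean log2 fold -0.01, SE 0.27, limma adjusted p = 0.993). TNFRSF13C, the receptor of TNFSF13B on B cells, stood at 3.47 and 3.74 CPM with NONO siRNA, against 3.58 CPM, with a mean log2 fold of 0.01 that turns to -0.02 with TMM scaling. TNFRSF4, a receptor of activated T cells, had at most 2 reads in a library. TNFRSF17 had 3 reads with siRNA 2 and has no row for the other libraries. TNFRSF8, TNFRSF13B, TNFRSF18, TNFRSF19, TNFRSF6B and TNFRSF11B have no row in the tables used here.

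Levels of different genes can be set side by side only per length. Per kilobase of annotated exons, TNFRSF12A was the highest member, at 52.0 and 110 CPM per kb with NONO siRNA 1 and 2 and 90.3 CPM per kb in the control library. TNFRSF1A followed at 35.7 and 34.8 CPM per kb with NONO siRNA and 43.7 in the control, and TNFRSF10D at 27.8 and 28.9 with NONO siRNA and 44.6 in the control. The higher of the 2 ligands, CD70, stood at 8.48 and 7.92 CPM per kb with NONO siRNA and 15.6 in the control, which put it between CD40 and TNFRSF21 in mean level per length. TNFRSF9 stood at 0.118 and 0.260 CPM per kb with NONO siRNA and 1.28 in the control. Summed over their genes without regard to length, ligands came to 17.3 and 17.2 CPM with NONO siRNA 1 and 2 and 30.0 CPM in the control, and receptors to 917 and 1048 CPM and 1135 CPM.

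**Figure D3:**
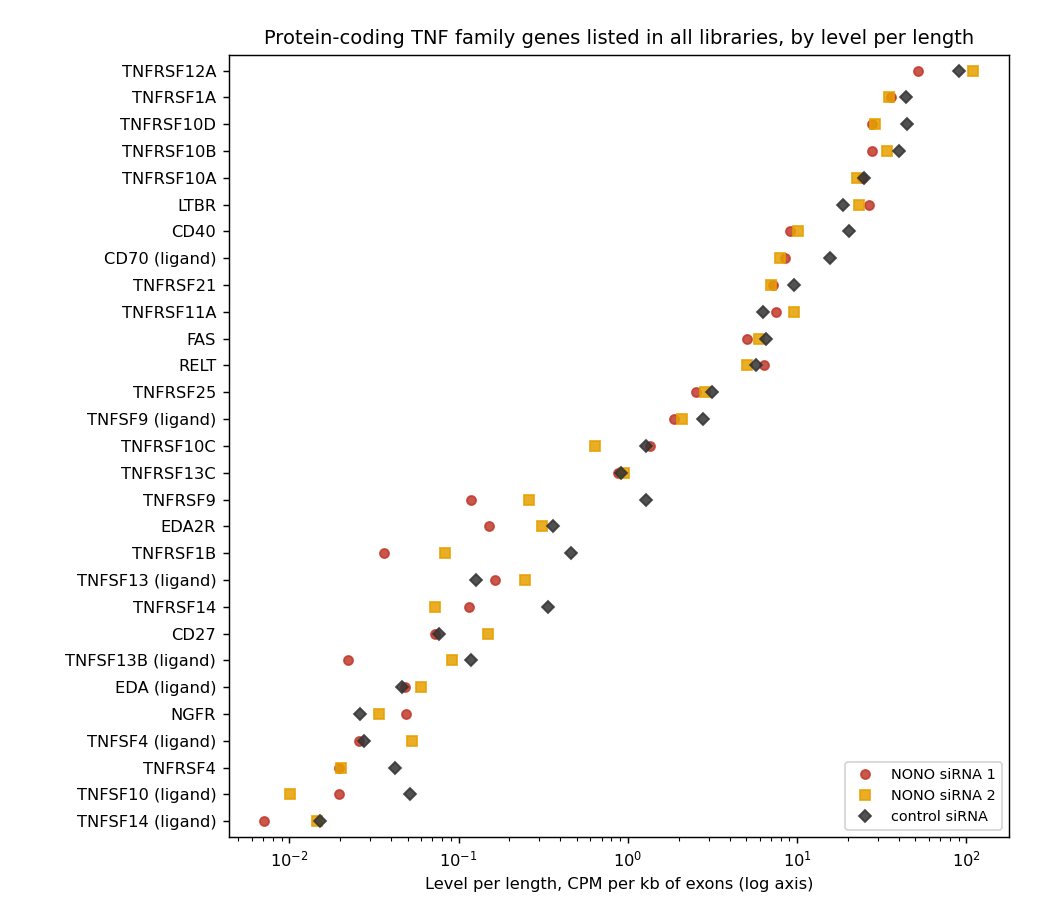
Level per length, in CPM per kb of annotated exons (log axis), of the 29 protein-coding members with a row in all 3 tables, 1 point for each of the NONO siRNA 1, NONO siRNA 2 and control libraries, ordered by mean. Receptors fill the upper end, led by TNFRSF12A at 52.0 to 110 CPM per kb, and all ligands other than CD70 and TNFSF9 lie at the lower end.

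Genes that act with these receptors were read from 7 lists of 71 genes, of which 61 were tested. Limma called 2 of them lower and 0 higher, against 0.079% and 0.136% of all genes tested. On recovered reads edgeR called 7 lower and 0 higher, against 0.413% and 0.507% of all its genes, and DESeq2 called 6 of 60 lower and 2 higher, against 0.508% and 1.17%. Both NONO siRNA libraries lay below the control for 40 of the 61 genes, against 34.5% of all genes tested, and above it for 12, against 37.8%. The list counts that follow are to be read against the same shares. The lists were chosen with earlier results of these data known, so their counts are no independent support. Beside the genes that limma called, edgeR called lower the ubiquitin ligase gene BIRC3, the ubiquitin-editing TNFAIP3, the NF-kB subunit gene NFKB2, the inhibitor gene NFKBIA and the chemokine gene CCL2, all but BIRC3 also in DESeq2. NFKBIB and RHBDF2 were called higher by DESeq2. The genes called lower by limma were TRAF1, an adaptor of TNF receptors, and NFKBIE, an inhibitor of NF-kB. TRAF1 stood at 7.28 and 9.41 CPM with NONO siRNA 1 and 2, against 73.6 CPM in the control library (adjusted p = 0.0105). NFKBIE stood at 10.1 and 10.5 CPM with NONO siRNA, against 41.8 CPM (adjusted p = 0.0374).

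Among 17 TRAF, ubiquitin ligase and deubiquitinase genes, 11 were lower and 3 higher in both NONO siRNA libraries. TRAF3, which restrains the alternative NF-kB pathway, had the highest fold of that list, at 178 and 181 CPM with NONO siRNA, against 102 CPM in the control (mean log2 fold 0.81, limma adjusted p = 0.196). Of 8 NF-kB subunits and inhibitors, 7 were lower and 1 higher, which was NFKBIB at 66.7 and 53.4 CPM with NONO siRNA, against 24.9 CPM (mean log2 fold 1.23, adjusted p = 0.114 in limma, 0.0633 in edgeR and 0.0204 in DESeq2). Of 7 tested death and necroptosis genes 4 were lower and 2 higher, with MLKL, the pore former of necroptosis, at 9.93 and 15.4 CPM with NONO siRNA, against 19.8 CPM, and the adaptor TRADD at 8.09 and 6.43 CPM, against 5.02 CPM. Of 10 kinase genes 6 were lower and 3 higher, from MAP3K14, the NF-kB-inducing kinase NIK, with a mean log2 fold of -0.69 to TAB1, a partner of the kinase TAK1, with 0.56.

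The shedding genes held 1 difference of over 2-fold. RHBDF2, a rhomboid-like partner of the TNF-shedding protease ADAM17, stood at 23.0 and 22.7 CPM with NONO siRNA 1 and 2, against 8.96 CPM in the control library (mean log2 fold 1.26, adjusted p = 0.112 in limma, 0.0583 in edgeR and 0.0281 in DESeq2). Its paralog RHBDF1 stood at 21.4 and 20.2 CPM with NONO siRNA, against 29.7 CPM, and had the lowest fold of the list. Of 10 tested TNF-induced genes 7 were lower and 1 higher in both libraries. The chemokine CCL2 had the lowest mean log2 fold among them, -1.62 (adjusted p = 0.0761 in limma, 0.0109 in edgeR and 0.00122 in DESeq2), and TNFAIP8 the highest, 0.36. Partners of NGFR and EDAR lay between -0.63 for BDNF, a neurotrophin, and 0.20 for LINGO1, a co-receptor of NGFR. None of the shedding genes, TNF-induced genes or NGFR and EDAR partners passed limma's test, while DESeq2 called RHBDF2 and CCL2 and edgeR called CCL2.

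**Figure D4:**
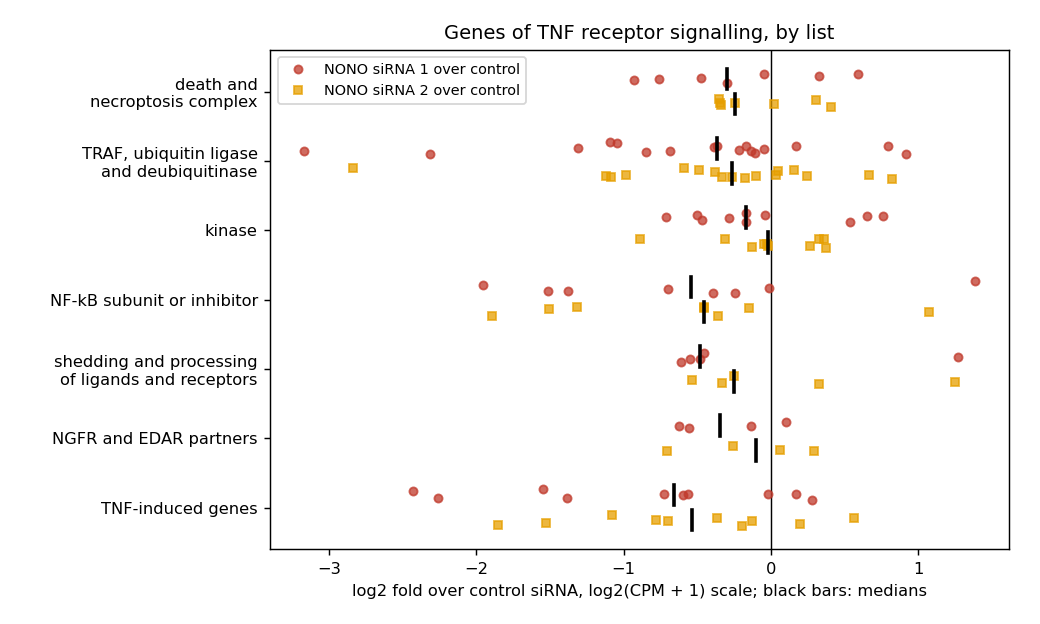
log2 fold over the control siRNA library on the log2(CPM + 1) scale for the 61 tested genes of TNF receptor signalling in 7 lists, 1 point per gene for NONO siRNA 1 and for NONO siRNA 2, with medians as black bars. The lowest point is TRAF1, and the points furthest right are NFKBIB and RHBDF2, both above a log2 fold of 1 with both siRNAs.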

How the data were processed

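RNA-seq of UM-UC-3 cells gave 1 table per library, 2 with NONO siRNA and 1 with control siRNA. The submitters' processing notes name HISAT2 2.1.0, HTSeq 0.6.1 and bcl2fastq 2.19.1, and as builds hg19 and GRCh37. The sources used here give neither their roles nor the annotation or strand setting. The deposited values are CPM, which the authors scaled to the library total with no length term: 99.3%, 99.5% and 99.3% of values in the NONO siRNA 1, NONO siRNA 2 and control libraries are whole multiples of 1 read within 0.01 reads. The other 147, 117 and 147 values, at the lowest value of each table, were taken as 0 reads.

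limma 3.58.1 (R 4.3.3, with an intensity trend) was fitted to log2(CPM + 1) of the 13922 genes that reached 1 CPM in any library, both NONO siRNA libraries against the control. With 1 residual and 7.68 prior degrees of freedom, p-values rest on the spread between 2 different siRNAs and assume that the lone control varies alike, and SEs come mostly from the trend over all genes. P-values are two-sided, adjusted by the Benjamini-Hochberg method over all genes and called under 0.05. DESeq2 1.42.0 (11806 genes with an adjusted p) and the quasi-likelihood test of edgeR 4.0.16 (16963 genes, TMM) were run on the recovered reads. The fit was tried on simulated counts in which both NONO siRNAs acted alike on every gene and all genes shared a common dispersion. That setting differs from these data, so it is no check of p-values that rest on the spread between the siRNAs. Exact 95% Poisson intervals cover counting error only, and not differences between repeated libraries. They may be too narrow even for counting error where reads come from the same molecule.

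Symbols came from a name table holding 21049 of 21308 identifiers, and lengths, coordinates and transcripts from GENCODE 29 on GRCh38, not the authors' build. Sites of 7 bases that pair with bases 2 to 8 of an siRNA strand were searched in the 3′ UTR of 1 transcript per gene. The labelled strands were taken as sense strands. For the control siRNA this is an assumption. The members, lists and tests were chosen with earlier results of these data known. Members with at least 1 CPM in a library were named with all values, those with a mean of at least 5 CPM, called or at least 2-fold changed with both siRNAs in full, and list genes if called or at either end of their list. Alternatives were other pseudocounts, filters, scalings and tools and leaving out either siRNA.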

Additional observations from a re-analysis of the deposited data

How the results depend on the processing

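The direction of 21 of the 22 tested members was the same under the pseudocounts, filters, scalings and tools that gave it a value. The filter at a mean of 5 CPM kept 14 of them and left out 8, TNFRSF9, TNFRSF1B and TNFRSF14 included. The member that changed direction was TNFRSF13C, whose mean log2 fold of 0.01 became -0.017 with TMM scaling, -0.0018 with upper-quartile scaling, -0.015 in edgeR and -0.017 in DESeq2. No member was called higher under any setting. TNFRSF9 was called lower with upper-quartile scaling, edgeR and DESeq2, which each gave 1 member lower, against 0 in the other fits. Genes called over the whole table, 19 higher and 11 lower, became 0 and 0 with no filter on low values, 2 and 3 among genes averaging 5 CPM or more, 2 and 3 with TMM scaling, 161 and 80 with upper-quartile scaling, 0 and 3 without a trend, 86 and 70 in edgeR and 138 and 60 in DESeq2, and the cause was not tested. Leaving out either siRNA leaves a fold with no test. The members' median log2 fold then ranged from -0.40 to -0.20, and TNFRSF12A from -0.79 to 0.28, TNFRSF10C from -0.63 to 0.055, RELT from -0.17 to 0.15 and TNFRSF13C from -0.034 to 0.051 turned sign. No paired analysis was possible because the control group holds 1 library, so the groups share fewer than 2 replicate numbers. Ligands other than CD70 and TNFSF9 have too few reads to show a difference at this depth.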
